A study of Bos taurus with 9 samples.

Results

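The genes described here are 10 genes of prostaglandin synthesis, transport, breakdown and reception, *PTGS1*, *PTGS2*, *PTGES*, *PTGES2*, *PTGES3*, *AKR1B1*, *PTGIS*, *SLCO2A1*, *HPGD* and *PTGER4*, chosen by name from the 21512 genes listed for single bovine blastocysts at day 8 (D8). All 10 were listed, and their symbols all matched the RefSeq annotation of ARS-UCD2.0. Each of the 9 libraries came from 1 whole blastocyst, in which inner cell mass and trophectoderm were not separated. All embryos were produced *in vitro* from slaughterhouse oocytes fertilised with semen of a single bull. The 5 wild-type (WT) blastocysts, libraries WT_1 to WT_5, carried no edited allele and, by the study's methods, received *Cas9* mRNA alone. The 4 knockout (KO) blastocysts, libraries TE_1 to TE_4, received *Cas9* mRNA with a guide RNA to the fourth exon of *TEAD4*, a transcription factor of the Hippo pathway, and carried only frame-disrupting alleles, which arose separately in each embryo.

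Prostaglandins are lipid signals made from arachidonic acid, which phospholipases release from membranes. A cyclooxygenase, PTGS1 or PTGS2, turns the acid into prostaglandin H, from which terminal synthases make prostaglandin E, F or prostacyclin. The transporter SLCO2A1 carries prostaglandins across the cell membrane, HPGD inactivates them in the cytoplasm and receptors such as PTGER4 respond to them from outside. In cattle, the conceptus and the endometrium both make prostaglandins around the time of elongation and maternal recognition of pregnancy.

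Values are TPM, a unit of transcript abundance that takes transcript length into account and sums to 1000000 in each library, so that levels of different genes in a library can be set side by side. The number of reads behind a value is unknown. All 9 housekeeping genes looked up were at 20.9 TPM or above in every library. Between 14807 and 16678 genes were above 0 in WT libraries and between 14776 and 15375 in KO libraries. *TEAD4* itself was at 18.0 to 54.3 TPM in WT and 12.5 to 42.8 TPM in KO libraries, and this level is no check of the genotype, since a frame-disrupting indel need not lower the transcript. Genes with a median above 0.1 TPM were compared in limma, which fits linear models across the 14599 such genes, on log2(TPM + 1), with Benjamini-Hochberg adjustment. Fold changes are KO minus WT on that scale, which understates changes of low genes. Exact permutation tests over the embryos were two-sided and unadjusted, and with 5 against 4 embryos they cannot give a p-value under 0.0159.

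Of the 10 genes, *PTGS2*, *PTGES*, *PTGES3* and *AKR1B1* were abundant, *PTGES2* was intermediate, and *PTGS1*, *PTGIS*, *SLCO2A1*, *HPGD* and *PTGER4* were low, as the plot of the members by embryo shows. Between genotypes, *PTGIS* averaged 3.004 times its WT level in KO and *AKR1B1* and *SLCO2A1* were lower, by unadjusted tests only. With limma, 9 of the 10 genes could be tested and 0 passed the call rule, which asked for an adjusted p-value under 0.05 together with a log2 fold change beyond 1 in size; the same rule called 3 genes in the whole table (0.0205%). At an unadjusted p-value under 0.05, 1 of the 9 was higher in KO (2.07% of all genes tested) and 2 were lower (3.83%). In 1 of the 9 every KO embryo lay above every WT embryo (0.801% of all genes), and in 1 every KO embryo lay below (1.23%). The median log2 fold change of the 9 was −0.23, against −0.05 over all genes tested.

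**Figure D1:**
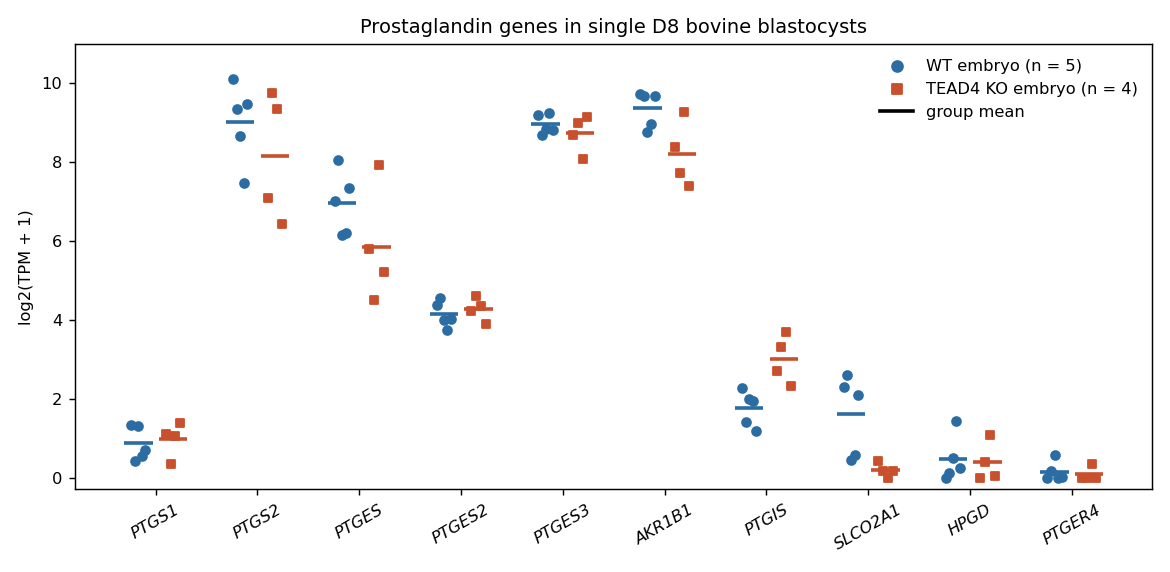
Level of each of the 10 genes, as log2(TPM + 1), in 5 WT (circles) and 4 *TEAD4* KO (squares) blastocysts, with the group mean as a line. The WT and KO points of *PTGIS* and *SLCO2A1* do not overlap, and those of the other genes do.

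Of the cyclooxygenases, nearly all transcript was *PTGS2*, the inducible enzyme. *PTGS2* was at 1099.5, 655, 405, 177 and 710.3 TPM in WT_1 to WT_5, compared with 136, 870.5, 646 and 85.1 TPM in TE_1 to TE_4. It thus ranged from rank 150 to rank 1949 among the 21512 genes, and its highest library exceeded its lowest 6.22 times within WT and 10.2 times within KO. TE_1 and TE_4 were below every WT embryo, while TE_2 was higher than 4 of the 5 WT embryos. The mean level was 609 ± 347 TPM (SD, n = 5) for WT against 434 ± 386 TPM (SD, n = 4) for KO. The difference, a log2 fold change of −0.86 with a SE of 0.70 and a 95% interval from −2.37 to 0.66, did not pass the test (limma, unadjusted p = 0.241, adjusted p = 0.944). It moved between −1.39 without TE_2 and −0.28 without TE_4.

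*PTGS1*, the constitutive cyclooxygenase, was at 1.53, 0.333, 1.496, 0.474 and 0.628 TPM in WT and at 1.16, 0.276, 1.07 and 1.61 TPM in KO embryos. The groups overlapped, although TE_2 lay below and TE_4 above every WT embryo. The log2 fold change was 0.11 with a SE of 0.28 (limma, adjusted p = 0.987). *PTGS2* made up 99.8 ± 0.132% (SD, n = 5) of the summed cyclooxygenase TPM in WT and 99.3 ± 0.833% (SD, n = 4) in KO. The share lay between 98.15% and 99.97% in every embryo, and its difference between genotypes did not pass the test (exact permutation p = 0.254).

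Several enzymes can convert prostaglandin H to prostaglandin E. *PTGES* encodes the membrane-bound synthase that is commonly induced together with PTGS2. It was at 128, 265, 70.7, 73.2 and 161 TPM in WT_1 to WT_5, compared with 54.3, 21.65, 243 and 35.9 TPM in TE_1 to TE_4. TE_1, TE_2 and TE_4 lay below every WT embryo, whereas TE_3 lay above 4 of the 5. Means were 139.7 ± 79.9 TPM (SD, n = 5) for WT against 88.8 ± 104 TPM (SD, n = 4) for KO, with a log2 fold change of −1.10 and a SE of 0.61 (limma, 95% interval −2.44 to 0.23, adjusted p = 0.891). The fold change was −1.79 without TE_3 and −0.65 without TE_2.

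The other prostaglandin E synthases were steadier. *PTGES2*, a second membrane-associated synthase, ranged from 12.5 to 22.55 TPM in WT and from 13.9 to 23.25 TPM in KO embryos, with a log2 fold change of 0.13 and a SE of 0.27 (limma, adjusted p = 0.983). *PTGES3*, which is also known as a co-chaperone of HSP90, was at 587, 414, 456, 609 and 448 TPM in WT and at 414, 508, 270.1 and 569.9 TPM in KO embryos. Its log2 fold change was −0.23 with a SE of 0.25 (limma, adjusted p = 0.971), and its highest value was 1.47 times its lowest in WT and 2.11 times in KO. *PTGES* contributed 20.9 ± 11.1% of the summed TPM of the 3 synthases in WT and 16.6 ± 19.6% in KO, and ranged from 3.92% in TE_2 to 45.65% in TE_3 (exact permutation p = 0.683).

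*AKR1B1* encodes an aldose reductase that is known as a prostaglandin F synthase in bovine endometrium. It was at 849.8, 824, 437, 499 and 821 TPM in WT_1 to WT_5, compared with 334, 211, 616 and 168 TPM in TE_1 to TE_4. TE_1, TE_2 and TE_4 lay below every WT embryo, and TE_3 lay between the WT values. The WT mean of 686 ± 201 TPM (SD, n = 5) was 2.06 times the KO mean of 332 ± 202 TPM (SD, n = 4). The log2 fold change was −1.17 with a SE of 0.37 and a 95% interval from −1.97 to −0.37. The exact permutation p was 0.0476, but the difference did not pass adjustment over all genes (limma, adjusted p = 0.624, with a range from 0.192 to 0.999 over the alternative settings). With each embryo left out in turn, the fold change kept its direction and ran from −1.53 without TE_3 to −0.91 without TE_4.

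*PTGIS*, the prostacyclin synthase, was higher in KO embryos. It was at 3.80, 1.66, 3.01, 2.84 and 1.28 TPM in WT_1 to WT_5, compared with 5.53, 8.86, 11.9 and 3.99 TPM in TE_1 to TE_4. Every KO value was above every WT value, although TE_4 and WT_1 lay close together. Means were 2.52 ± 1.03 TPM (SD, n = 5) for WT against 7.57 ± 3.53 TPM (SD, n = 4) for KO. The log2 fold change was 1.24 with a SE of 0.37 and a 95% interval from 0.43 to 2.05. The exact permutation p of 0.0159 was the smallest the design allows, and the adjusted p from limma was 0.618, with a range from 0.407 to 0.999 over the alternative settings. The fold change lay between 1.01 and 1.47 with each embryo left out.

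*SLCO2A1*, the prostaglandin transporter, was lower in KO embryos. It was at 3.95, 5.12, 0.365, 0.482 and 3.28 TPM in WT_1 to WT_5, compared with 0.337, 0.116 and 0.118 TPM in TE_1, TE_2 and TE_4, and it was listed at 0 in TE_3. All KO values were below all WT values, but WT_3 and WT_4 exceeded TE_1 by little. The WT mean of 2.64 ± 2.13 TPM (SD, n = 5) was 18.5 times the KO mean of 0.143 ± 0.141 TPM (SD, n = 4). The log2 fold change was −1.42 with a SE of 0.44 and a 95% interval from −2.37 to −0.47, and with a pseudocount of 0.1 TPM it was −3.09. The exact permutation p was 0.0159 and the limma adjusted p 0.624, which ranged from 0.465 to 0.999 over the alternative settings. Under scaling by size factors or by quantiles the genotypes overlapped. *SLCO2A1* is in a gene list that the study drew up from these same embryos, so its direction here is not independent evidence.

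**Figure D2:**
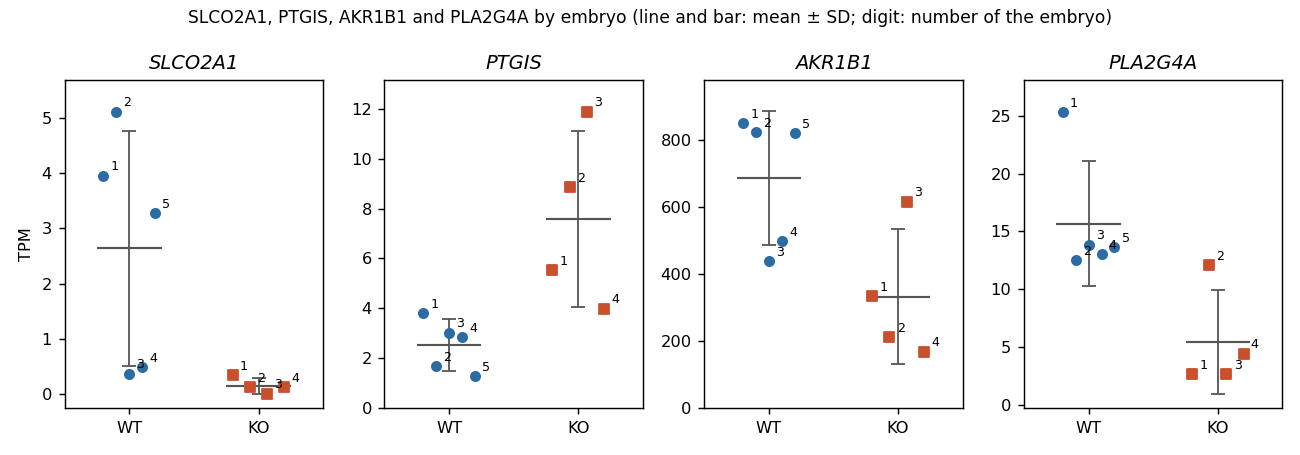
TPM of *SLCO2A1*, *PTGIS*, *AKR1B1* and *PLA2G4A*, a phospholipase, in each WT (circles) and *TEAD4* KO (squares) blastocyst; lines and bars are mean ± SD and digits number the embryos within a genotype. *AKR1B1* overlaps through TE_3, and the other genes do not overlap.

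*HPGD*, the dehydrogenase that starts prostaglandin breakdown, was listed at 0 in WT_1 and TE_1. It was at 0.0891, 0.424, 1.73 and 0.179 TPM in WT_2 to WT_5 and at 0.328, 1.13 and 0.0279 TPM in TE_2 to TE_4. The log2 fold change of −0.08 with a SE of 0.31 (limma, adjusted p = 0.992) changed sign when WT_4 was left out, to 0.17. *PTGER4*, a receptor for prostaglandin E, was listed at 0 in 5 of the 9 libraries and reached no more than 0.482 TPM in WT_3 and 0.271 TPM in TE_3. Its median of 0 TPM kept it out of the limma test, and the exact permutation p was 0.714.

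**Figure D3:**
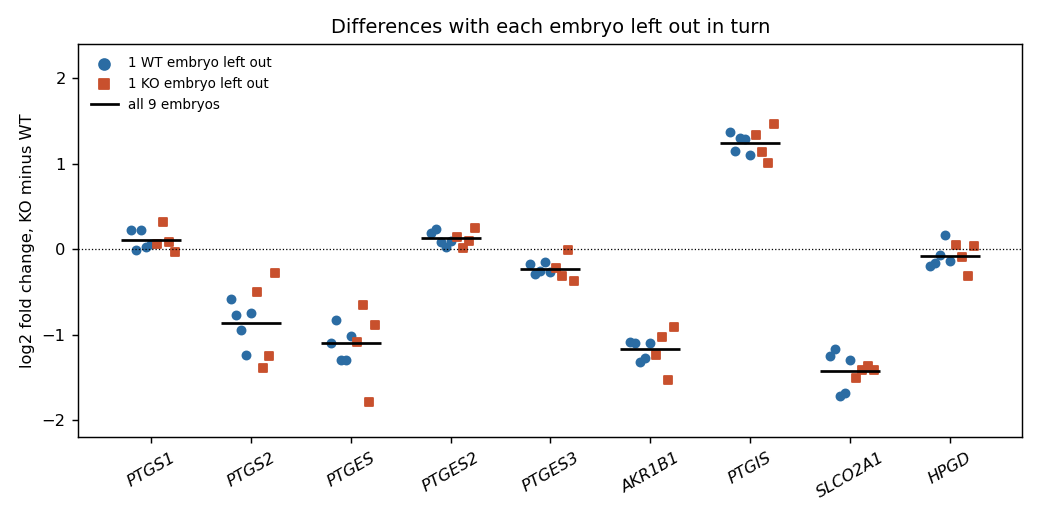
Log2 fold change, KO minus WT, of the 9 tested genes with each WT (circles) or KO (squares) embryo left out in turn; lines give the value with all 9 embryos. *PTGIS* and *PTGES2* stay above 0 and *AKR1B1*, *SLCO2A1*, *PTGES*, *PTGES3* and *PTGS2* stay below 0, while *PTGS1* and *HPGD* cross 0.

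The balance of transcripts between the prostaglandin E synthases and *AKR1B1* was expressed as a log2 ratio. It set the summed TPM of *PTGES*, *PTGES2* and *PTGES3* against that of *AKR1B1*. *PRXL2B*, another prostaglandin F synthase, was not part of the ratio. Its mean was 96.2 TPM in WT and 121 TPM in KO, so the ratio does not describe the whole prostaglandin F branch. The ratio was −0.21, −0.23, 0.31, 0.48 and −0.40 in WT_1 to WT_5 and 0.54, 1.39, −0.21 and 1.89 in TE_1 to TE_4. TE_1, TE_2 and TE_4 were above every WT embryo, and TE_3 was among the WT embryos. The difference in mean was 0.91 (exact permutation p = 0.0794). Without TE_3 it was 1.28 with an exact permutation p of 0.0357, the smallest that 5 against 3 embryos allow. That p follows from leaving out the only overlapping KO embryo, so it is no separate support. With *PTGES3* left out of the sum, the difference in mean was 0.37 (exact permutation p = 0.222).

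Within WT, 5 of the 10 genes were high in the same embryos, a pattern noticed after the values were seen. WT_1, WT_2 and WT_5 had the highest WT values of *PTGS2*, *PTGES*, *PTGES2*, *AKR1B1* and *SLCO2A1*. *PTGES3*, also abundant, did not share it, with its highest WT value in WT_4 and its lowest in WT_2 and WT_5. WT_1, WT_2 and WT_5 also had the highest WT values of *KRT8*, a keratin of the trophectoderm epithelium. These were 11971.6, 9228.8 and 8974.7 TPM, against 4788.3 in WT_3 and 2720.6 in WT_4. Of the other trophectoderm markers looked up, *CDX2*, *GATA2*, *TFAP2A*, *KRT18*, *KRT19*, *SFN* and *PAG2* were also highest in those WT embryos. *GATA3*, *TFAP2C* and *TKDP1* were not: *TFAP2C* was lowest in WT_5 (75.6 TPM) and WT_2 (97.3 TPM), and *TKDP1* was highest in WT_3 (79.3 TPM). In KO embryos *KRT8* was at 5101.3, 8598.9, 3993.3 and 4889.1 TPM in TE_1 to TE_4. TE_2, with the highest *KRT8* and *PTGS2* of the KO embryos, had the lowest *PTGES*, and TE_3, with the lowest *KRT8*, had the highest *PTGES*, *AKR1B1* and *PTGIS*. Other trophectoderm markers ordered the KO embryos differently from *KRT8*. *GATA3*, *GATA2*, *KRT19*, *SFN* and *TKDP1* had their highest KO value in TE_3, at 52.9, 97.6, 2130.1, 525.3 and 37.7 TPM. *CDX2* and *TFAP2C* had theirs in TE_2, and *TFAP2A*, *KRT18* and *PAG2* in TE_1.

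The summed TPM of 11 trophectoderm markers, mostly *KRT8* and *KRT18*, ran from 4929.2 to 20782.7 in WT and from 6945.1 to 13294.6 in KO embryos. Of these markers, 9 had a lower and 2 a higher mean log2 level in KO, and 2 of the 11 were lower in KO at an unadjusted p-value under 0.05 with limma, against 3.83% of all genes tested. The latter were *TFAP2A*, a transcription factor, and *PAG2*, a pregnancy-associated glycoprotein of trophoblast. The sum of 6 inner cell mass markers ran from 802 to 2196.0 in WT and 1409.4 to 2230.8 in KO, but most of it was *POU5F1*, at 773 to 1693.1 TPM in WT and 1352.1 to 2142.1 TPM in KO, whose protein is not confined to the inner cell mass in bovine blastocysts. The pluripotency factors *NANOG* and *SOX2* were at 0.127 to 262 TPM and 3.89 to 90.4 TPM in WT and at 2.70 to 53.3 TPM and 2.26 to 42.4 TPM in KO. The *POU5F1* mean was higher and the *NANOG* and *SOX2* means lower in KO (limma, adjusted p = 0.836, 0.962 and 0.982). The sum of 6 hypoblast markers, mostly *FN1* and *GATA6*, ran from 116 to 327 in WT and 105 to 230.4 in KO. Of the hypoblast markers, 5 had a lower and 1 a higher mean log2 level in KO. Their median log2 fold change was −0.572, against −0.296 for the trophectoderm and −0.197 for the inner cell mass markers. With limma, 1 of the hypoblast markers, the transcription factor *GATA4*, was lower in KO at an unadjusted p-value under 0.05. It was low, with means of 1.46 TPM in WT and 0.640 TPM in KO. At that level 0 of the inner cell mass markers differed. The part of these cell types in the differences of *AKR1B1*, *PTGIS* and *SLCO2A1* was not tested. In whole blastocysts, fewer cells of a type and less RNA per cell cannot be told apart.

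Cumulus and granulosa cells, which surround the oocyte and also express *PTGS2*, were looked for with 13 markers. Of these, 6 were under 1 TPM in every library, among them *HAS2*, the hyaluronan synthase of the expanding cumulus, at no more than 0.520 TPM, and *PTX3*, a protein of its matrix, at no more than 0.370 TPM. Others were present, among them *FSHR*, the follicle-stimulating hormone receptor, at 12.1 to 26.8 TPM in WT and 1.36 to 23.3 TPM in KO, and *STAR*, which moves cholesterol into mitochondria, at 4.49 to 11.7 TPM in WT and 1.62 to 6.60 TPM in KO. The summed level of the 13 was 139.7 to 240.3 TPM in WT and 13.3 to 260.0 TPM in KO embryos. *HSD3B1*, a steroid dehydrogenase, was the highest of the 13 in every library but TE_1, where *FSHR* was higher, and was at 104.8 to 220.3 TPM in WT and 8.32 to 227 TPM in KO (limma, unadjusted p = 0.0215, adjusted p = 0.753). The part of these cells in the values of *PTGS2* was not tested.

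Correlations with *PTGS2* across the 9 embryos were computed on log2(TPM + 1) for 6 of the genes and, with the pair of *SLCO2A1* and *HPGD*, made up 7 pairs. The closest to *PTGS2* over the 9 embryos was *AKR1B1*, with Pearson's r = 0.598 (exact permutation p = 0.103) and Spearman's rho = 0.617 (exact permutation p = 0.0857). After Benjamini-Hochberg adjustment over the 7 pairs the p-values were 0.445 and 0.598, and r was 0.128 without TE_1 and TE_4, the embryos farthest from the median of *PTGS2*, and 0.536 for deviations from the genotype means. For *SLCO2A1*, r was 0.509 (exact permutation p = 0.175) and rho 0.333 (exact permutation p = 0.385). For *PTGES*, r was 0.440 (exact permutation p = 0.233) and rho 0.317 (exact permutation p = 0.410). Without TE_1 and TE_4 these r were 0.377 and 0.114, and for deviations from the genotype means they were 0.400 and 0.334. For *HPGD*, which was low throughout, r was −0.0422 over the 9 embryos, −0.787 without TE_1 and TE_4 and −0.0747 for deviations from the genotype means. For *SLCO2A1* with *HPGD*, both low, r was −0.421 (exact permutation p = 0.254) and rho −0.301 (exact permutation p = 0.427). That r was −0.688 for deviations from the genotype means. It was −0.187 without WT_1 and WT_2, the embryos farthest from the median of *SLCO2A1*. None of the 7 pairs passed an adjusted p-value of 0.05.

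**Figure D4:**
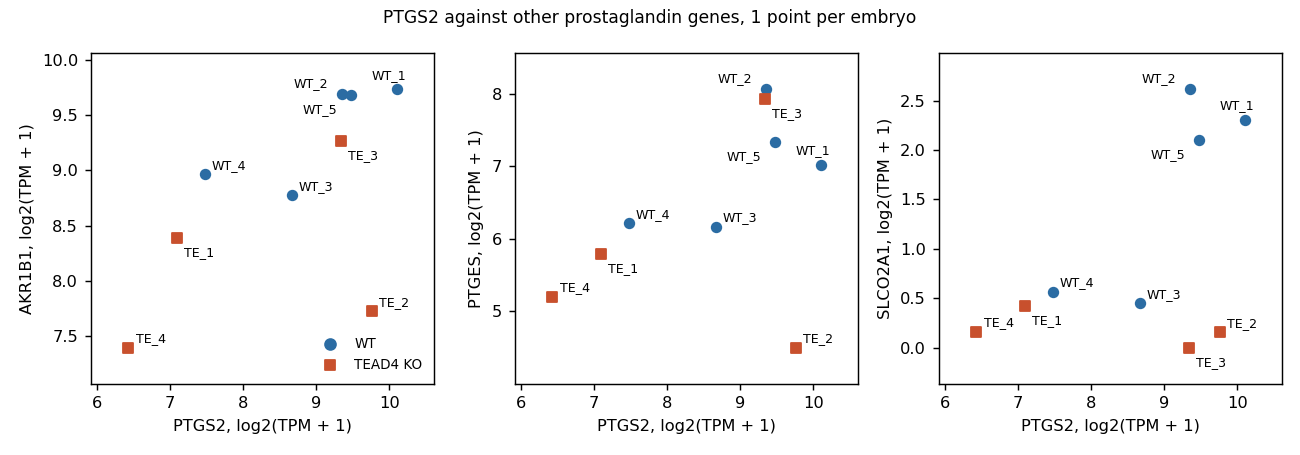
*AKR1B1*, *PTGES* and *SLCO2A1* against *PTGS2* in 5 WT (circles) and 4 *TEAD4* KO (squares) blastocysts, both axes in log2(TPM + 1). TE_1 and TE_4 have the lowest *PTGS2*, and TE_2 combines high *PTGS2* with low *AKR1B1*, *PTGES* and *SLCO2A1*.

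The genes whose pattern over the 9 libraries was most like that of *PTGS2*, by Pearson's r of log2(TPM + 1) among 11611 tested genes with a mean above 1 TPM, were *KDSR* (r = 0.987), *ADGRL2* (r = 0.969) and *TERT* (r = 0.966). *KDSR* encodes a reductase of sphingolipid synthesis, *ADGRL2* an adhesion receptor and *TERT* the catalytic subunit of telomerase. For *SLCO2A1* they were *SMG8* (r = 0.959), a factor of nonsense-mediated decay, ENSBTAG00000023918 (r = 0.955) and *WNT2B*, a Wnt ligand (r = 0.950). These are descriptions over the same 9 libraries, chosen as the highest of many.

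Of 58 further genes of the pathway, in 6 lists of phospholipases, other synthases, breakdown and transport, receptors, nuclear receptors and the lipoxygenase branch, 57 were listed and 40 could be tested. Of the 40, 0 were called changed with limma, 1 was higher and 1 lower in KO at an unadjusted p-value under 0.05, and the median log2 fold change was −0.16. Over all genes tested, 2.07% were higher and 3.83% lower at that level, so that these counts lay near the background. The pair, both phospholipases, is described next by the rule for naming genes.

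*PLA2G4A*, the cytosolic phospholipase A known for releasing arachidonic acid, was at 25.3, 12.5, 13.9, 13.0 and 13.6 TPM in WT_1 to WT_5, compared with 2.67, 12.1, 2.67 and 4.42 TPM in TE_1 to TE_4. All KO embryos lay below all WT embryos, TE_2 only just. The mean level was 15.7 ± 5.42 TPM (SD, n = 5) for WT against 5.46 ± 4.50 TPM (SD, n = 4) for KO. The log2 fold change was −1.53 with a SE of 0.41 (limma, p = 0.00298, adjusted p = 0.525), and the exact permutation p was 0.0159. *PLA2G4B*, a related phospholipase, overlapped between genotypes with a WT mean of 0.492 TPM and a KO mean of 1.03 TPM (log2 fold change 0.43, limma p = 0.0492, adjusted p = 0.836, exact permutation p = 0.0476).

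The most abundant gene of each list overlapped between the genotypes. Among the phospholipases this was *PLA2G15*, a lysosomal enzyme, at 17.4 to 182 TPM in WT and 44.0 to 136 TPM in KO. Among breakdown and transport genes it was *PTGR1*, a prostaglandin reductase, with means of 638 ± 273 TPM (SD, n = 5) and 317 ± 246 TPM (SD, n = 4) and a log2 fold change of −1.26 with a SE of 0.58 (limma, adjusted p = 0.836). *PRXL2B*, another prostaglandin F synthase, averaged 96.2 TPM for WT embryos and 121 TPM for KO embryos (limma, log2 fold change 0.31, adjusted p = 0.956).

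Receptors were low, with 6 of the 9 other genes on the receptor list not reaching the expression threshold. The list includes *PTGFRN*, a regulator of the prostaglandin F receptor and not itself a prostanoid receptor. *PTGFR*, the prostaglandin F receptor, was the highest, at 1.94 to 4.04 TPM in WT, listed at 0 in TE_1 and at 4.75 to 7.19 TPM in the other KO embryos. Its log2 fold change was 0.20 with a SE of 0.55 (limma, adjusted p = 0.987). *RXRB*, a nuclear receptor partner, averaged 18.8 TPM for WT and 22.4 TPM for KO embryos, and *LTA4H*, a leukotriene hydrolase, 18.6 TPM in WT and 13.3 TPM in KO. The log2 fold changes of these, 0.24 and −0.53, did not pass the test (limma, adjusted p = 0.971 and 0.905).

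**Figure D5:**
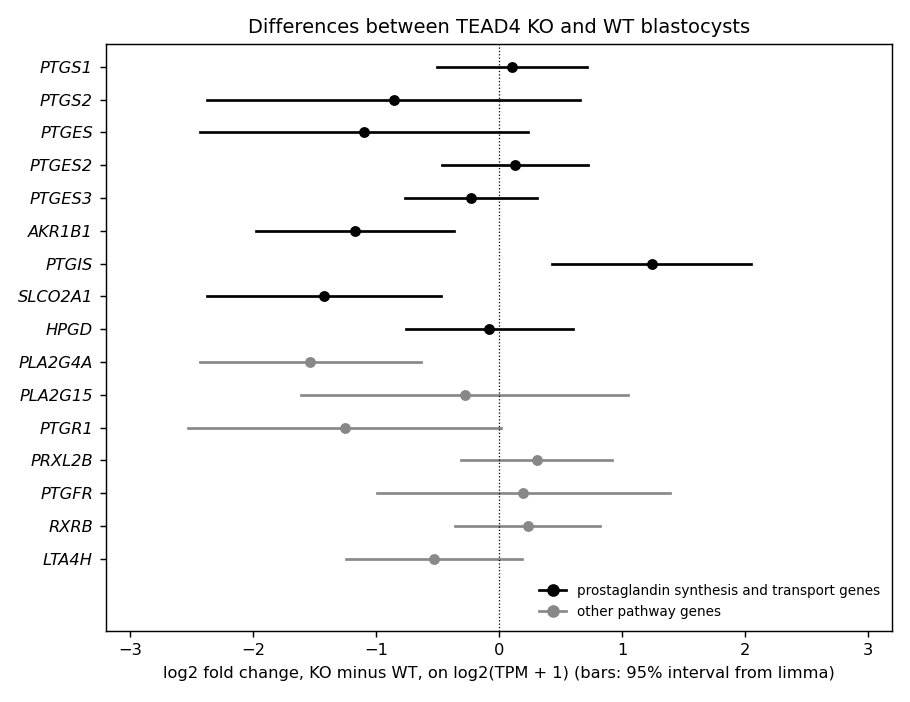
Log2 fold change, KO minus WT, with 95% intervals from limma on log2(TPM + 1), for the 9 tested prostaglandin synthesis and transport genes (black) and 7 other pathway genes (grey). The intervals of *AKR1B1*, *SLCO2A1* and *PLA2G4A* lie below 0 and that of *PTGIS* lies above 0 before adjustment; 0 of the genes passed adjustment over all 14599 genes.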

How the data were processed

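The authors prepared 1 RNA-seq library per blastocyst and deposited TPM values for 21512 genes in 9 libraries, each summing to 1000000. The submitters' processing notes name FastQC, fastp and kallisto, without versions; the genome build is not given in the sources used here, so no coordinates or sequences are given. The labels and the paper's methods name different kits and sequencers. Column names give the genotype but not which deposited sample a library is, and embryos were not paired. Depth per value is unknown, since TPM keeps no read number.

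The genes and gene lists were chosen with earlier results of these data known. Every member is reported; of the other lists, the gene with the highest mean and each gene with an unadjusted p-value under 0.05 or without overlap were named, and for *PTGS2* and *SLCO2A1* the 3 genes of the highest Pearson's r. Other genes were named after their values were seen. Genes with a median above 0.1 TPM were tested on log2(TPM + 1) with limma 3.58.1 (R 4.3.3; lmFit, eBayes with trend, Benjamini-Hochberg). Exact permutation tests covered all 126 regroupings (scipy 1.17.1, doubling the smaller tail). DESeq2, which the study used on counts, was not run. The scripts were tested on simulated data. Alternatives were another pseudocount, filters, scalings, limma settings and leaving out each embryo.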

Additional observations from a re-analysis of the deposited data

Results flagged for a closer look

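In 4 cases the highest embryo of a genotype stood apart from the others of its group by Dixon's criterion at the 95% level. The criterion was applied to TPM in 20 groups (10 genes in each genotype). For normally distributed values it would flag about 1 in 20 by chance. That rate does not hold for skewed values or values near 0, so the 4 cases cannot be set against it. *PTGES* in TE_3, at 243 TPM, stood above the other KO embryos, which were at 21.65 to 54.3 TPM. *HPGD* in WT_4, at 1.73 TPM, exceeded the other WT embryos, which reached 0.424 TPM. *PTGER4* was at 0.482 TPM in WT_3 and at 0.271 TPM in TE_3, while the other KO embryos were listed at 0 and the other WT embryos reached 0.129 TPM. Where a single embryo of a group is above 0, as for *PTGER4* in KO, the criterion is met whatever its value.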

How the results depend on the processing

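The count of members called changed by limma was 0 under all 16 alternatives, while the count over all genes was 3 as reported, 0 to 10 with 1 embryo left out and 2 to 8 under the other settings. The count of members whose genotypes did not overlap, 2 as reported, was 1 with a median above 1 TPM (*SLCO2A1* was not tested there), 1 with size factors and 1 with quantile normalization, and 2 to 4 with each embryo left out; without TE_3, *PTGES* and *AKR1B1* joined. The log2 fold change of *PTGS1* ran from −0.0279 (without TE_4) to 0.316 with each embryo left out, and was −0.00509 without WT_2. That of *HPGD* was 0.086 with array weights and ran from −0.314 to 0.168 with each embryo left out (0.0498 without TE_1, 0.0366 without TE_4). The difference in the log2 ratio of prostaglandin E synthases to *AKR1B1*, 0.91 as reported, ran from 0.582 to 1.28 with each embryo left out. It was 0.372 without *PTGES3*. Without TE_3, the only overlapping KO embryo, the exact permutation p was 0.0357, which leaving that embryo out fixes at its smallest. Without the 2 embryos farthest in *PTGS2*, r was 0.147 with *PTGS1* and −0.163 with *PTGER4*, against −0.318 and 0.187 in all 9. The causes were not tested. The other 191 values kept their direction and, where a p-value was computed, their side of the threshold. For the correlations only the sign was compared. The 191 thus include r of *PTGS2* with *HPGD*, −0.0422 in all 9 and −0.787 without the 2 farthest embryos, and with *AKR1B1*, 0.598 and 0.128. The median log2 fold change over all genes, −0.0462 as reported, was 0.0376 without TE_1 and −0.125 without TE_2. No paired analysis was possible because every library is a separate embryo and the titles repeat no embryo number between genotypes.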
